A study of Danio rerio with 20 samples.

Results

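Kruppel-like factors are zinc finger transcription factors that bind GC-rich and CACCC elements in promoters. Family members differ mainly outside the zinc fingers, in the parts that recruit coactivators or corepressors. In mammalian liver, KLF9 and KLF15 respond to glucocorticoids, and KLF15 is known for its part in amino acid catabolism and glucose production.

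The 10 genes described here are klf2a, klf2b, klf3, klf6a, klf8, klf9, klf11a, klf11b, klf13 and klf15, taken by symbol from the 32105 genes of the count table. All 10 passed the filter on low counts, as did 18079 genes in all. The members were chosen by their gene family with results of these samples known. klf8 was selected for the strongest rise between resting and exercised 3-year fish, where its log2 fold change was the largest of the 10. The values of that comparison are therefore given as a description with no test. For klf8 the age difference at rest, the age difference in exercised fish and the interaction of age and exercise hold 1 or both of those groups in unequal parts and are described in the same way. The age difference averaged over exercise weights both groups equally and is the one age comparison tested for klf8.

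RNA was sequenced in 20 liver libraries of male zebrafish of the strain given as AB JxTu, in 4 groups of 5. The groups were exercised fish of 3 years, resting fish of 3 years, exercised fish of 1 year and resting fish of 1 year. Exercise was swimming in a swim tunnel, a chamber with a current, and resting fish had no such treatment. Each library is called a fish here. No label states that the 5 libraries of a group are 5 animals, so p-values rest on differences among libraries that could in part be technical.

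Gene names need 2 remarks. The symbol table lists klf6a as KLF6, with a separate entry for klf6b. Both KLF11 genes carry the same symbol, so klf11a and klf11b cannot be told apart, and they are called the less abundant KLF11 gene (ENSDARG00000030844) and the more abundant KLF11 gene (ENSDARG00000013794). If reads were shared between them, their values are uncertain.

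Total counts ranged from 33067760 to 41297161 in exercised 3-year fish, from 34398915 to 47150197 in resting 3-year fish, from 37276700 to 49579666 in exercised 1-year fish and from 33046127 to 47169864 in resting 1-year fish. The 20 hepatocyte markers found summed to between 90150 and 328500 CPM per library, where CPM are counts scaled to library size by the TMM method. The intestinal gene fabp2 was above 100 plain CPM (not TMM scaled) in 7 libraries, at 282.5 to 3480 plain CPM, and at most 5.73 plain CPM in the other 13. The 7 libraries were exercised 3-year fish 1, 2 and 5, resting 3-year fish 3, exercised 1-year fish 3 and 4, and resting 1-year fish 5. They are called libraries with intestinal reads. The 20 intestinal markers summed to 882.3 to 27190 CPM in exercised 3-year fish, 1044 to 6640 CPM in resting 3-year fish, 1667 to 24180 CPM in exercised 1-year fish and 1872 to 27300 CPM in resting 1-year fish. In whole liver, fewer cells of a type and less RNA per cell cannot be told apart.

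Markers of 8 further cell types or tissues were summed in the same way, and no list had a marker at 0 in all libraries. The 14 exocrine pancreas markers found summed to 433.2 to 42070 CPM in exercised 3-year fish, 1644 to 68130 CPM in resting 3-year fish, 886.4 to 18880 CPM in exercised 1-year fish and 394.8 to 123700 CPM in resting 1-year fish. Sums of 18 lymphocyte markers were 45.73 to 94.15 CPM in exercised 3-year fish, 11.49 to 44.58 CPM in resting 3-year fish, 4.739 to 28.89 CPM in exercised 1-year fish and 7.78 to 70.33 CPM in resting 1-year fish. The 17 myeloid markers summed to 363.1 to 492.5 CPM in exercised 3-year fish, 285.6 to 550.5 CPM in resting 3-year fish, 277.6 to 387.1 CPM in exercised 1-year fish and 341.6 to 484.3 CPM in resting 1-year fish. Skeletal muscle markers (16 found) summed to 13.62 to 333.9 CPM in exercised 3-year fish, 5.488 to 116.2 CPM in resting 3-year fish, 5.339 to 35.27 CPM in exercised 1-year fish and 7.569 to 142.7 CPM in resting 1-year fish. Pancreatic and muscle sums thus varied widely within every group, and lymphocyte sums of the 3-year groups did not overlap. Over the 4 groups the erythrocyte sum lay between 78.88 and 705.4 CPM, the stellate and matrix sum between 2095 and 11140 CPM and the biliary sum between 1462 and 4242 CPM.

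Of 17 myeloid markers tested, the complement genes c1qa and c1qc fell with exercise at 1 year (-1.44 ± 0.31 and -1.26 ± 0.27, edgeR adjusted p = 0.017 and 0.0181), and 0 rose. Of all genes 1.38% rose and 1.47% fell in that comparison. Without the 7 libraries with intestinal reads 1 of the 17 fell with exercise at 1 year and 0 rose. Over all genes that setting called 185 of 18120 in the comparison, against 515 of 18079 in the full fit. With age in exercised fish 7 of the 17 rose and 0 fell, where 3.91% of all genes rose and 5.25% fell, and with averaged age 6 rose and 0 fell, where 5.4% rose and 6.95% fell. When the 7 libraries with intestinal reads were left out, 5 rose with age in exercised fish, and 7 rose and 1 fell with averaged age. That setting called 437 and 1450 of 18120 genes in these comparisons, against 1657 and 2233 of 18079 in the full fit. In exercised fish cd79a, a B cell receptor gene (3.34 ± 0.82, edgeR adjusted p = 0.0175), rose with age as 1 of 15 lymphocyte markers, and the biliary marker ANXA4 (0.62 ± 0.19, edgeR adjusted p = 0.0466) rose as 1 of 11. Levels of cd79a were very low, with means of 0.507 CPM in exercised 3-year fish and 0.0459 CPM in exercised 1-year fish. Without the 7 libraries with intestinal reads 0 lymphocyte and 0 biliary markers were called for age in exercised fish. With averaged age the biliary marker krt18b rose as 1 of 11 and the hepatocyte marker serpina1l as 1 of 20 (0.85 ± 0.22 and 1.28 ± 0.37, edgeR adjusted p = 0.0178 and 0.0316). Of all genes 5.4% rose in that comparison. The median log2 fold change was 0.40 over the biliary and 0.04 over the hepatocyte markers, against 0.04 over all genes. edgeR called 0 of the intestinal, pancreatic, erythrocyte, muscle and stellate markers in the 5 comparisons tested. For age in exercised fish 8 of 13 muscle markers had an unadjusted p under 0.05, DESeq2 called 6 and limma-voom 0. Over all 18079 genes DESeq2 called 3011 in that comparison and limma-voom 1650. The share of all genes with an unadjusted p under 0.05 there is not given. In each of the other 4 lists at most 3 markers had an unadjusted p under 0.05 in any of the 5 comparisons, DESeq2 called at most 1 and limma-voom 0. The part of any of these markers in the age results was not tested.

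Levels between genes were compared as CPM per kilobase, with gene lengths implied by the deposited counts and RPKM. klf15 (29.4 ± 13.9 CPM per kilobase), klf9 (28.1 ± 16.5) and the more abundant KLF11 gene (26.4 ± 18.5; SD, n = 20) had the highest mean levels and did not differ from each other beyond their spread. The less abundant KLF11 gene (5.31 ± 3.17 CPM per kilobase), klf6a (4.93 ± 2.25), klf8 (4.77 ± 2.13), klf2a (4.51 ± 1.79) and klf13 (4.49 ± 5.16) followed, again closer to each other than their SD. klf3 (2.90 ± 2.19 CPM per kilobase) and klf2b (1.43 ± 1.65) had the lowest means, and each was within 1 SD of its neighbour in the order. The one step larger than the SD of both genes beside it lay between the 2 KLF11 genes.

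**Figure D1:**
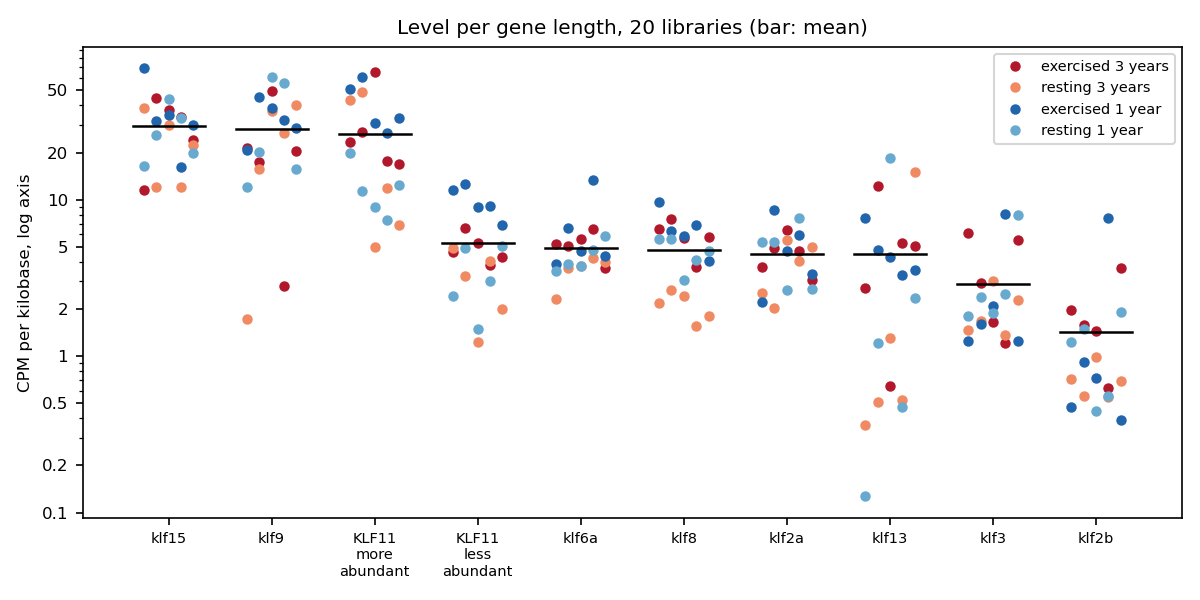
Level of each Kruppel-like factor gene per gene length (CPM per kilobase, log axis), 1 point per library coloured by group, with the arithmetic mean of 20 libraries as a bar. klf15, klf9 and the more abundant KLF11 gene lie highest (means 29.4, 28.1 and 26.4), and klf13 spans the widest range.

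The genes also differed in how much fish of one group varied. The pooled within-group SD of log2 CPM was 1.88 for klf13, above that of 95.3% of the genes tested, and 1.33 for klf9, above that of 89.0%. It was 0.38 for klf8, above that of only 32.2% of genes, and 0.45 for klf6a. The median over all tested genes was 0.54. klf8 was thus the least variable of the 10 within groups and klf13 the most variable.

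In mammals, KLF8 and KLF3 bind the corepressor CtBP and act mostly as repressors. klf8 had 14.8, 17.1, 13.02, 8.47 and 13.3 CPM in the 5 exercised 3-year fish, against 5.02, 6.04, 5.52, 3.54 and 4.16 CPM in resting 3-year fish. It had 22.1, 14.4, 13.5, 15.8 and 9.33 CPM in exercised 1-year fish, against 12.9, 12.9, 7.04, 9.40 and 10.7 CPM in resting 1-year fish. The 5 resting 3-year fish lay below all 15 others, and the groups overlapped elsewhere.

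Between exercised and resting 3-year fish the log2 fold change of klf8 was 1.46 ± 0.24 (SE), in the comparison by which it was picked. It was the one gene of the 10 whose 3-year groups did not overlap, where 2.77% of all tested genes had groups apart. Over all 18079 genes tested, edgeR called 0% (0 genes) for exercise at 3 years, with 2952 unadjusted p under 0.05, while DESeq2 called 629 genes and limma-voom 0. The next largest fold change in that comparison was 1.403 ± 0.71, for klf2b. Of the 7 libraries with intestinal reads, 4 belong to the 3-year fish, and without the 7 libraries the log2 fold change of klf8 was 1.18. Its mean was then 10.7 CPM in the 2 remaining exercised 3-year fish and 4.69 CPM in the 4 remaining resting ones. In that comparison the median log2 fold change was 2.65 over the intestinal markers, 1.55 over the tested skeletal muscle markers, 0.67 over the lymphocyte markers, 0.46 over the myeloid markers and -0.61 over the hepatocyte markers, against 0.04 over all genes. It was -0.81 over the erythrocyte markers, -0.58 over the pancreatic, -0.21 over the endothelial, 0.05 over the biliary and 0.04 over the stellate and matrix markers. The lymphocyte marker sums of exercised 3-year fish (45.73 to 94.15 CPM) lay narrowly above those of resting 3-year fish (11.49 to 44.58 CPM), and the klf8 values of these groups were apart too. Over all 20 libraries, however, the highest klf8 level (22.1 CPM) and the lowest lymphocyte sum (4.739 CPM) were in the same library, exercised 1-year fish 1. The part of any marker list in the klf8 value was not tested. Beside this, 9 of the 10 genes, klf8 among them, had a positive log2 fold change at 3 years, as had 52.9% of all tested genes. The median of the 10 was 0.54 against 0.04 over all genes. As klf8 was picked in this comparison, the count is a description and was not tested. The low resting 3-year fish enter the age comparison at rest as well, where klf8 had a log2 fold change of -1.12 ± 0.24 with groups that did not overlap, as in 4.12% of all genes. That value and the interaction of age and exercise (0.95 ± 0.33 on the log2 scale) are likewise descriptions.

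Tests for klf8 were possible at 1 year and for age averaged over exercise, which with 5 fish in each group gives both 3-year groups the same weight. Estimates of the 2 contrasts are then uncorrelated as long as both groups spread alike, and the SD of log2 CPM of klf8 was 0.36 in exercised and 0.28 in resting 3-year fish. Both contrasts still use the same 3-year libraries and the same estimate of spread. In the 3-year comparison klf8 also had the largest fold change relative to its standard error of the 10 genes (6.15, next klf2b at 1.98). Its low spread may thus be part of the choice. The p-value for averaged age is therefore not independent of the choice of klf8. At 1 year klf8 averaged 15.0 ± 4.63 CPM in exercised fish and 10.6 ± 2.49 CPM in resting fish (SD, n = 5 each). The log2 fold change of 0.50 ± 0.23 did not pass the threshold (edgeR adjusted p = 0.317). Averaged over exercise, klf8 fell with age by 0.65 ± 0.16 on the log2 scale (edgeR adjusted p = 0.0156), with means of 13.3 ± 3.18 and 4.86 ± 1.01 CPM in exercised and resting 3-year fish and 15.0 ± 4.63 and 10.6 ± 2.49 CPM in exercised and resting 1-year fish. It was the 1 call among the 10 genes for averaged age, where 12.4% of all genes were called, 5.4% higher and 6.95% lower. The age difference of klf8 was -1.12 ± 0.24 at rest but -0.17 ± 0.23 in exercised fish, where the groups overlapped. Both values are descriptions, and the averaged fall lay mainly in the low resting 3-year fish. The call for averaged age ended without the 7 libraries with intestinal reads (value -0.89, edgeR adjusted p 0.0501). That setting leaves the 3-year groups unequal, so it is no independent test for klf8.

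**Figure D2:**
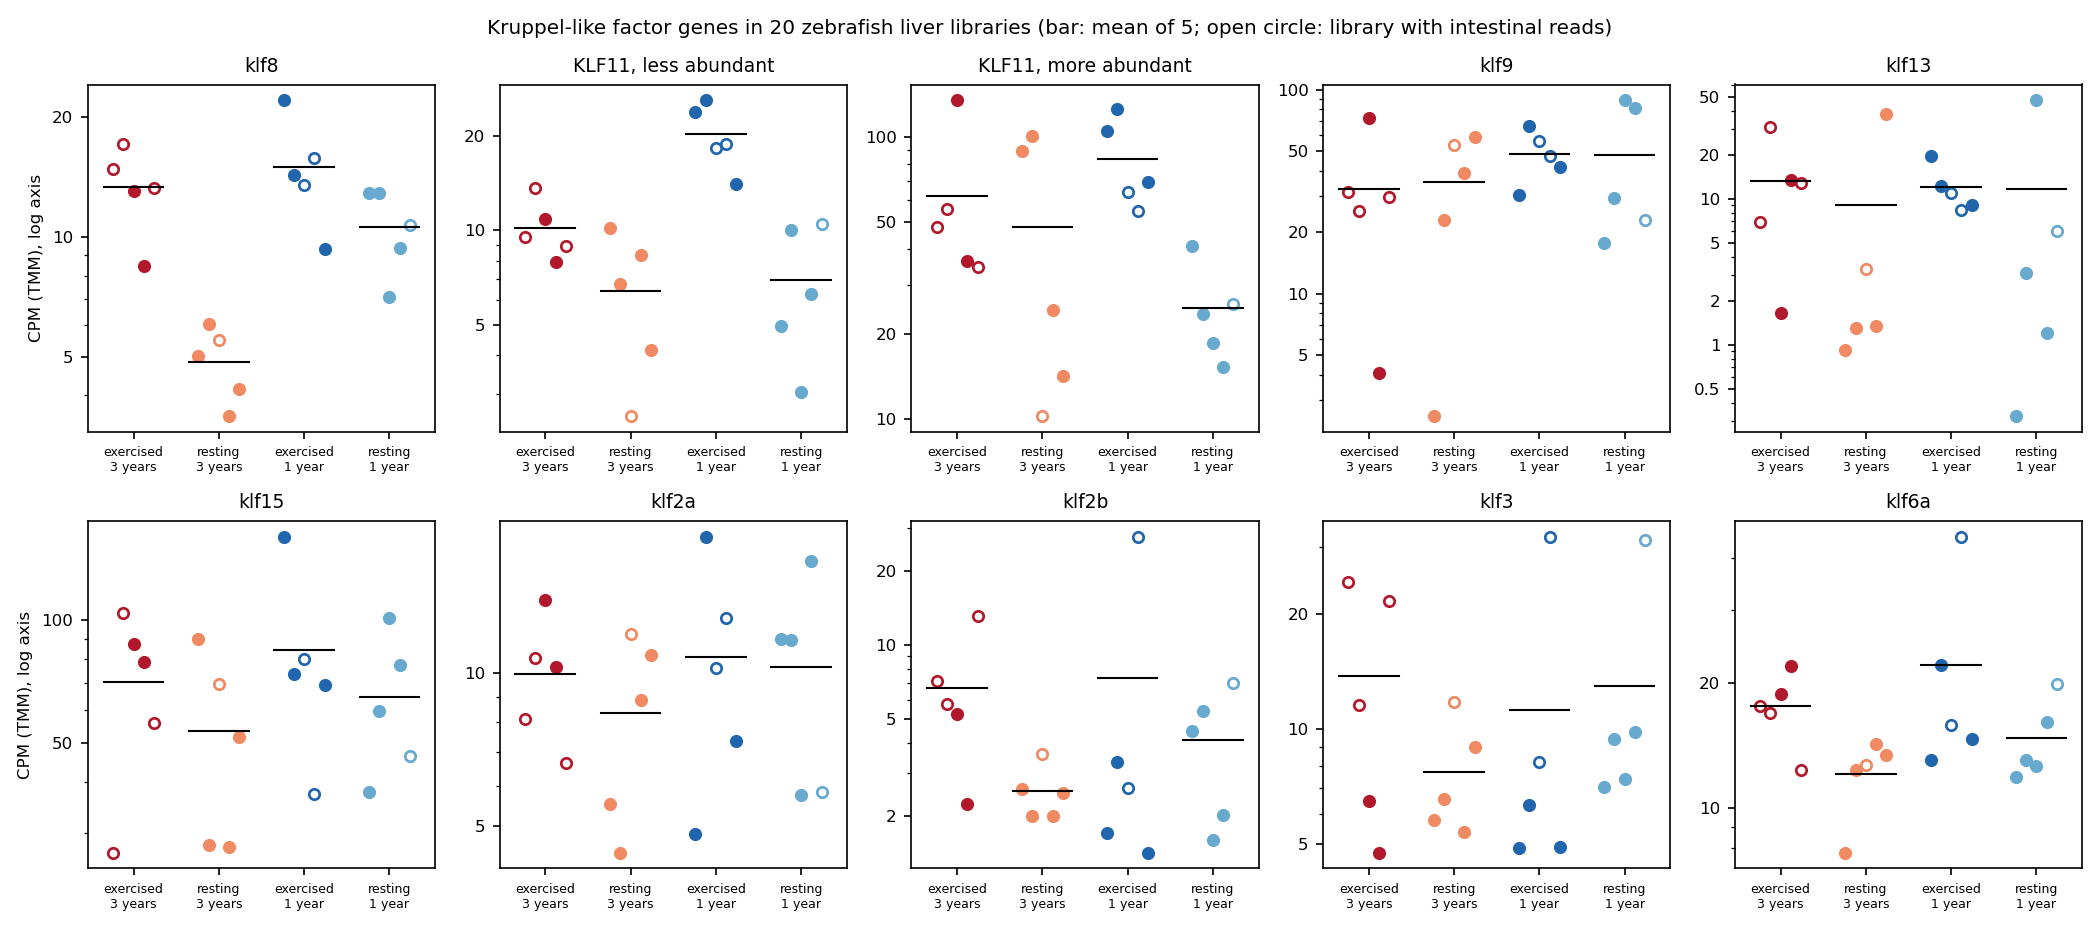
Level of each gene (CPM scaled by TMM, log axis) in every library, by group. Bars are arithmetic means of 5 and open circles mark the 7 libraries with intestinal reads. For klf8 the resting 3-year fish (3.54 to 6.04 CPM) lie below all others, and for the less abundant KLF11 gene the exercised 1-year fish (14.1 to 26.0 CPM) lie above all others.

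klf3, the other gene of the CtBP group, had its highest levels in libraries with intestinal reads. It had 24.3, 11.6, 6.51, 4.76 and 21.7 CPM in exercised 3-year fish, against 5.78, 6.57, 11.8, 5.37 and 9.01 CPM in resting 3-year fish. It had 4.89, 6.32, 8.23, 31.9 and 4.91 CPM in exercised 1-year fish, against 7.07, 9.45, 7.40, 9.82 and 31.3 CPM in resting 1-year fish. The 4 highest values all came from libraries with intestinal reads. The median was 21.7 CPM in those 7 libraries and 6.51 CPM in the other 13, which did not exceed 9.82 CPM.

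The log2 fold change of klf3 at 3 years was 0.84 ± 0.58, and it was -0.25 without the 7 libraries. Its age difference at rest (-0.76 ± 0.58, edgeR adjusted p = 0.573) and its interaction (1.04 ± 0.82, edgeR adjusted p = 0.554) did not pass the threshold. klf5l, a member of the klf5 branch of the family and no part of the 10, had a median of 19.8 CPM in the 7 libraries and 0.523 CPM in the other 13. In the RefSeq annotation (assembly GRCz12tu) klf5l is the direct neighbour of klf8, with 0 genes between them. klf8 had medians of 13.5 CPM in the 7 libraries and 9.33 CPM in the 13, of which 3 of the 7 and 2 of the 13 were exercised 3-year fish.

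**Figure D3:**
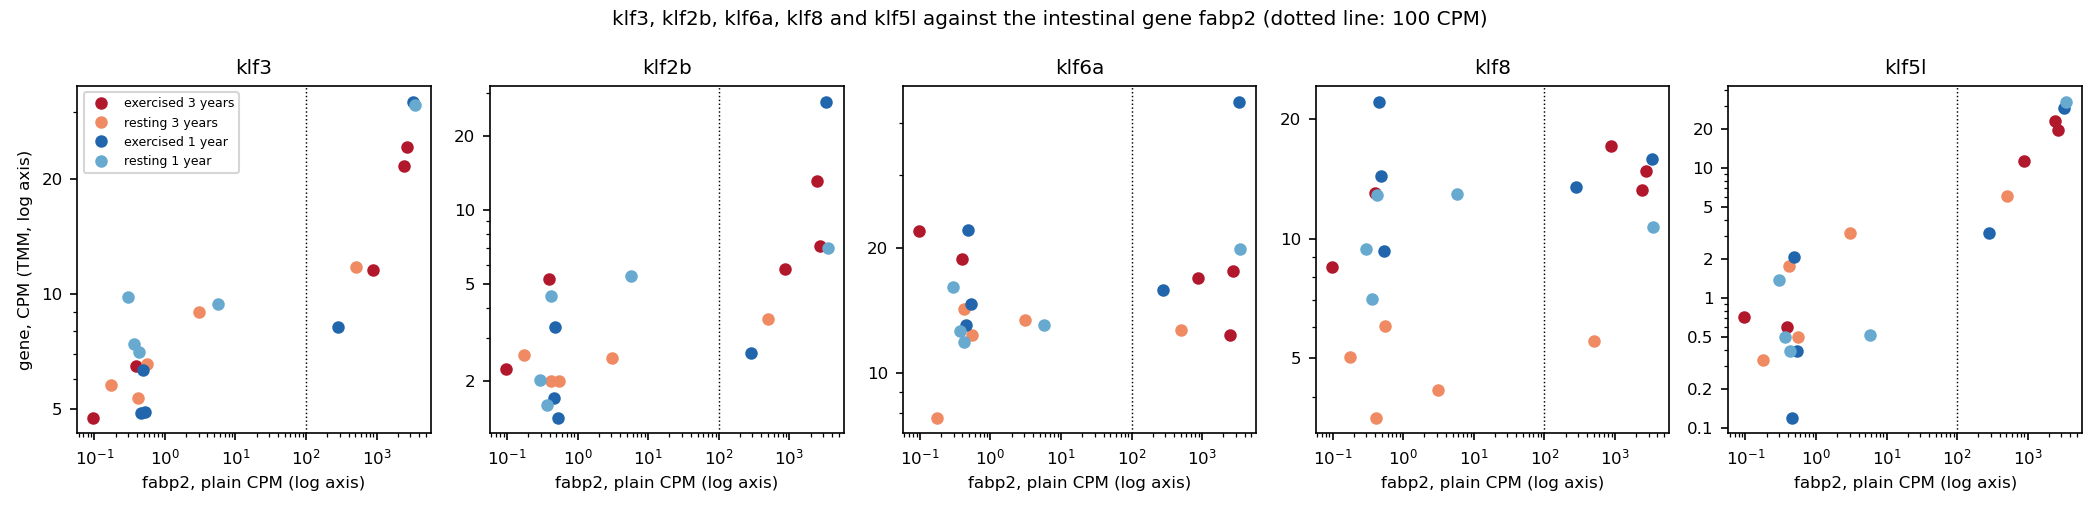
Levels of klf3, klf2b, klf6a, klf8 and klf5l (CPM scaled by TMM) against the intestinal gene fabp2 (plain CPM) in 20 libraries, both axes log, coloured by group, with a dotted line at 100 CPM. klf3 and klf5l are highest right of the line, where their medians are 21.7 and 19.8 CPM, and the klf8 median is 13.5 CPM there, against 9.33 CPM left of the line.

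KLF12, the remaining CtBP-binding family member of mammals, is listed for 2 zebrafish genes. The one with the identifier ENSDARG00000032197 averaged 8.16 ± 4.03 CPM in exercised 1-year fish and 1.83 ± 1.21 CPM in resting 1-year fish (SD, n = 5 each), with no overlap. It rose with exercise at 1 year by 2.16 ± 0.49 on the log2 scale (edgeR adjusted p = 0.0219). It averaged 4.48 ± 1.98 CPM in exercised 3-year fish and 2.95 ± 1.24 CPM in resting 3-year fish. The other gene (ENSDARG00000015312) averaged 1.32 ± 0.75 CPM in exercised 1-year fish and 2.54 ± 0.99 CPM in resting 1-year fish, and its log2 fold change of -0.94 ± 0.46 did not pass the threshold (edgeR adjusted p = 0.353). The call of the first gene at 1 year was lost without the 7 libraries with intestinal reads (value 2.45, adjusted p 0.0976) and without any 1 of exercised 1-year fish 1 or 2 or resting 1-year fish 1 or 2, where the adjusted p reached 0.0661. Fitting the 1-year groups alone also ended that call (edgeR adjusted p 0.0745).

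KLF9, KLF11 and KLF13 share a short repression domain that binds the corepressor Sin3A in mammals, and KLF11 was first known as a gene induced by TGF-beta. The less abundant KLF11 gene had 23.9, 26.0, 18.4, 18.9 and 14.1 CPM in exercised 1-year fish, against 4.96, 10.05, 3.05, 6.25 and 10.5 CPM in resting 1-year fish. Every exercised fish lay above every resting one. The gene rose with exercise at 1 year by 1.54 ± 0.35 on the log2 scale (edgeR adjusted p = 0.0237). It was the 1 gene called of 10 tested in this comparison, where 2.85% of all genes were called. Another 2 of the 10 had an unadjusted p under 0.05.

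That call lay close to the threshold. The adjusted p was 0.0521 when the 1-year groups were fitted alone and 0.0536 without the 7 libraries with intestinal reads, where the log2 fold change was larger, at 1.84. It was 0.0708 without resting 1-year fish 1, 0.0609 without resting 1-year fish 4, 0.0567 without exercised 1-year fish 1 and 0.0667 without exercised 1-year fish 2. The log2 fold change stayed between 1.35 and 1.71 over leaving out each of the 20 libraries.

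The more abundant KLF11 gene had 104.8, 125.4, 63.6, 54.6 and 69.1 CPM in exercised 1-year fish, against 41.1, 23.5, 18.6, 15.2 and 25.6 CPM in resting 1-year fish. These groups did not overlap either, so both KLF11 genes were among the 5.33% of all genes with 1-year groups apart (3.02% higher with exercise and 2.31% lower). Its log2 fold change was 1.75 ± 0.57 and did not pass the threshold (edgeR adjusted p = 0.118). DESeq2 gave an adjusted p of 0.0239, and edgeR gave 0.0309 when the 1-year groups were fitted alone. In the 20 libraries the log2 levels of the KLF11 genes had a Pearson correlation of 0.737, and of 0.57 after the group means were removed.

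At 3 years both KLF11 genes overlapped between exercised and resting fish. The less abundant one had 9.50, 13.7, 10.8, 7.93 and 8.92 CPM in exercised 3-year fish, against 10.2, 6.73, 2.55, 8.35 and 4.13 CPM in resting 3-year fish, with a log2 fold change of 0.67 ± 0.35. The more abundant one had 48.0, 55.4, 135.0, 36.4 and 34.6 CPM in exercised 3-year fish, against 89.1, 101.2, 10.3, 24.4 and 14.2 CPM in resting 3-year fish. Its resting 3-year fish thus split into a pair near 100 CPM and 3 below 25 CPM. The difference between the exercise effects at 3 years and at 1 year did not pass the threshold for either gene. It was -0.87 ± 0.49 on the log2 scale for the less abundant one (edgeR adjusted p = 0.416) and -1.38 ± 0.79 for the more abundant one (edgeR adjusted p = 0.421).

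With age, the less abundant KLF11 gene did not overlap between exercised 3-year fish (7.93 to 13.7 CPM) and exercised 1-year fish (14.1 to 26.0 CPM), as did 10.2% of all genes (3.95% higher and 6.23% lower in 3-year fish). The log2 fold change of -0.99 ± 0.35 did not pass the threshold (edgeR adjusted p = 0.0817). The adjusted p was 0.0253 by DESeq2 and 0.0177 with the exercised groups fitted alone. Averaged over exercise its age difference was -0.56 ± 0.25 (edgeR adjusted p = 0.148). For the more abundant KLF11 gene the age difference at rest was 0.95 ± 0.56 (edgeR adjusted p = 0.427).

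**Figure D4:**
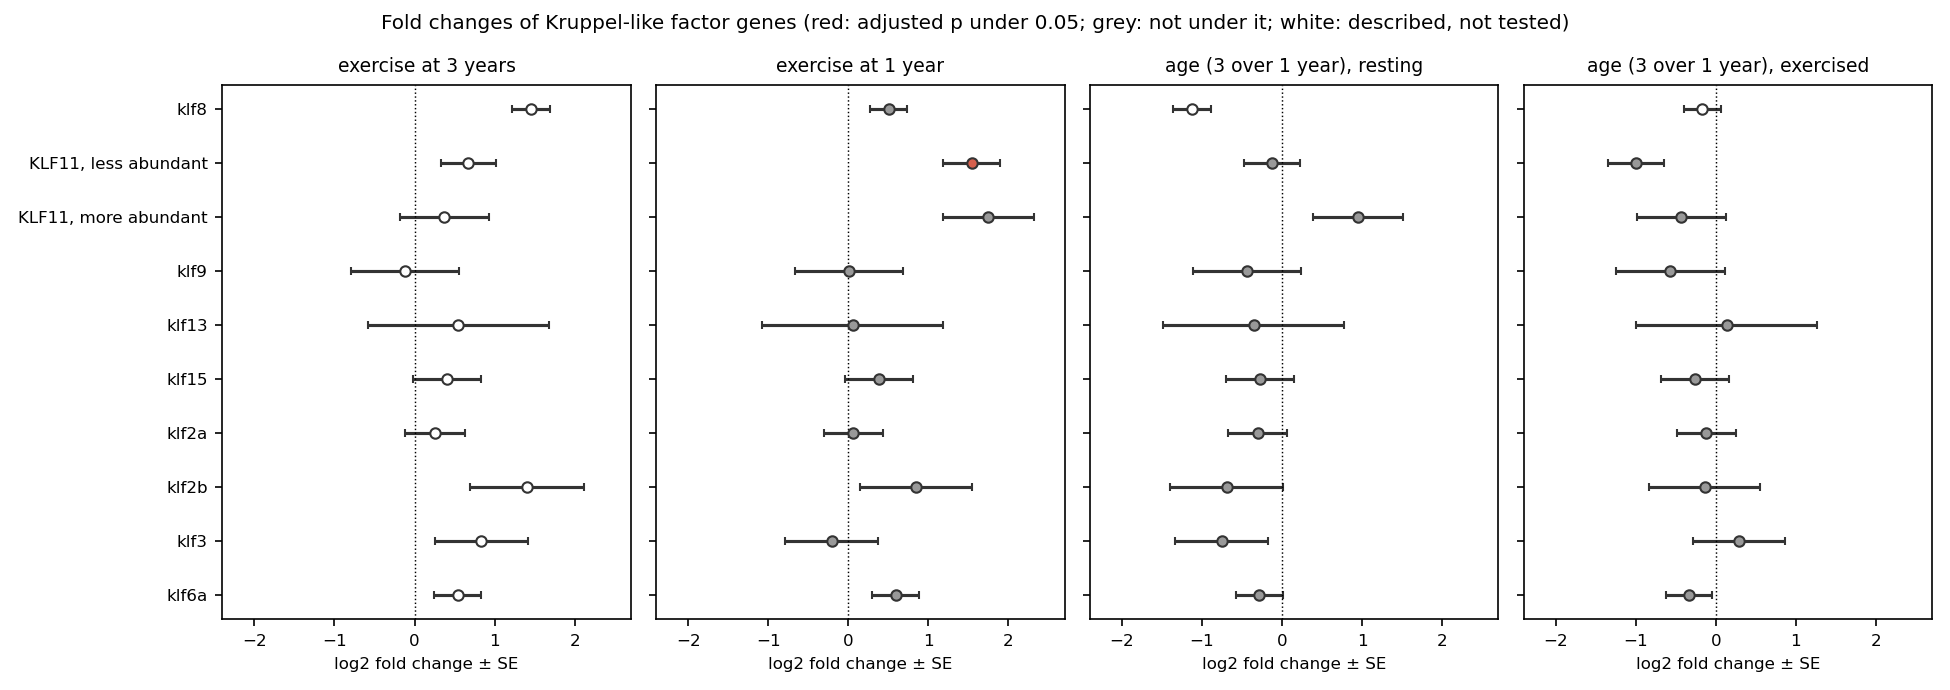
Log2 fold changes with standard errors of the 10 genes for exercise at 3 years, exercise at 1 year, age in resting fish and age in exercised fish (each 3-year over 1-year for age). White points were described and not tested, and the 1 red point, the less abundant KLF11 gene at 1 year (1.54 ± 0.35), passed the threshold.

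klf9 varied by a large factor within groups. It had 31.4, 25.4, 72.3, 4.07 and 29.9 CPM in exercised 3-year fish, against 2.51, 22.9, 53.8, 39.1 and 58.8 CPM in resting 3-year fish. It had 30.4, 66.4, 55.9, 47.0 and 41.8 CPM in exercised 1-year fish, against 17.7, 29.6, 88.6, 81.3 and 22.9 CPM in resting 1-year fish. All groups overlapped, and the exercised 1-year fish had the narrowest range of the 4 groups. The age difference averaged over exercise was -0.50 ± 0.48 (edgeR adjusted p = 0.559).

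klf13 spread more widely still, between 0.324 and 47.1 CPM. It had 6.90, 31.1, 1.64, 13.5 and 12.8 CPM in exercised 3-year fish, against 0.925, 1.29, 3.31, 1.33 and 38.2 CPM in resting 3-year fish. It had 19.5, 12.2, 10.9, 8.38 and 9.02 CPM in exercised 1-year fish, against 0.324, 3.11, 47.1, 1.21 and 6.01 CPM in resting 1-year fish. In each resting group 1 fish was far above the other 4, and the exercised 1-year fish lay close together. At 1 year the standard error of its log2 fold change was 1.13, so that a difference of that size would not be detectable here.

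klf15 had 26.9, 103.9, 87.1, 78.8 and 55.8 CPM in exercised 3-year fish, against 89.7, 28.0, 69.5, 27.8 and 51.6 CPM in resting 3-year fish. It had 160.1, 73.9, 80.4, 37.4 and 69.1 CPM in exercised 1-year fish, against 37.8, 59.9, 101.3, 77.7 and 46.2 CPM in resting 1-year fish. The groups overlapped throughout, and no fold change exceeded its standard error.

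KLF2 is an endothelial factor that responds to blood flow, and in zebrafish klf2a is induced by flow in the heart and vessels. klf2a ranged from 6.66 to 13.97 CPM in exercised 3-year fish, 4.43 to 11.97 CPM in resting 3-year fish, 4.83 to 18.6 CPM in exercised 1-year fish and 5.77 to 16.7 CPM in resting 1-year fish. No fold change of klf2a exceeded its standard error. The 20 endothelial markers found summed to 126.2 to 195.8 CPM in exercised 3-year fish, 168.4 to 219.1 CPM in resting 3-year fish, 178.4 to 236.6 CPM in exercised 1-year fish and 130.9 to 235.5 CPM in resting 1-year fish, with no marker at 0 in all libraries. Of these 20 markers 0 rose and 2 fell with age at rest and likewise in exercised fish, and 1 rose and 2 fell with averaged age. Of all genes 1.23% rose and 2.26% fell at rest, 3.91% and 5.25% in exercised fish, and 5.4% and 6.95% with averaged age. Over leaving out each library the number of these markers called was 0 to 5 at rest, 0 to 3 in exercised fish and 1 to 6 with averaged age.

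klf2b had 7.12, 5.77, 5.21, 2.25 and 13.2 CPM in exercised 3-year fish, against 2.58, 2.01, 3.58, 2.00 and 2.50 CPM in resting 3-year fish. It had 1.71, 3.34, 2.62, 27.7 and 1.42 CPM in exercised 1-year fish, against 4.47, 5.36, 1.61, 2.03 and 6.98 CPM in resting 1-year fish. As with klf3, the 4 highest values came from libraries with intestinal reads, and the medians were 6.98 CPM in those 7 libraries and 2.25 CPM in the other 13. Across the 20 libraries klf2b and klf3 had the highest Pearson correlation of any pair of the 10 genes, at 0.828 for log2 levels.

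The log2 fold change of klf2b at 3 years was 1.403 ± 0.71, and 0.71 without the 7 libraries. At 1 year it was 0.85 ± 0.70 (edgeR adjusted p = 0.669), but -0.61 without the 7 libraries and -0.85 without exercised 1-year fish 4 alone. The part that intestinal reads play in the values of klf2b and klf3 was not tested.

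klf6a, a gene needed for liver growth in the zebrafish embryo, had 17.6, 16.9, 18.8, 22.0 and 12.3 CPM in exercised 3-year fish, against 7.79, 12.3, 12.7, 14.2 and 13.4 CPM in resting 3-year fish. It had 13.05, 22.1, 15.8, 44.95 and 14.6 CPM in exercised 1-year fish, against 11.8, 13.03, 12.6, 16.1 and 19.8 CPM in resting 1-year fish. Exercised means were above resting means at both ages, and the groups overlapped. The log2 fold change was 0.54 ± 0.29 at 3 years and 0.59 ± 0.29 at 1 year (edgeR adjusted p = 0.353). Its age difference in exercised fish was -0.34 ± 0.29 (edgeR adjusted p = 0.493), but 0.23 without the 7 libraries with intestinal reads and 0.096 without exercised 1-year fish 4. Averaged over exercise it was -0.31 ± 0.20 (edgeR adjusted p = 0.359), and 0.014 without the 7 libraries.

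For age at rest, edgeR called 0 of the 9 genes tested, against 3.5% of all genes (1.23% higher and 2.26% lower), and 0 had an unadjusted p under 0.05. For age in exercised fish it called 0 of 9, against 9.17% of all genes, with 1 unadjusted p under 0.05. For the interaction it called 0 of 9, against 0.979% of all genes, with 0 unadjusted p under 0.05. DESeq2 called 0, 1 and 0 of the 9 in those comparisons, in the same order, and limma-voom called 0 in each. Over all 18079 genes DESeq2 called 1492, 3011 and 680, and limma-voom 589, 1650 and 145. The median log2 fold change of the 10 genes was 0.44 for exercise at 1 year against -0.04 over all genes, -0.33 against -0.01 for age at rest, and -0.21 against 0.08 for age in exercised fish.

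Of the other Kruppel-like and SP factor genes, 22 were in the table and 14 were tested. At 1 year 1 KLF12 gene rose, as given above, and SP4 fell with exercise by 0.98 ± 0.22 on the log2 scale (edgeR adjusted p = 0.0198). These were 1 rise and 1 fall among the 14, where 1.38% of all genes rose and 1.47% fell. SP4 averaged 4.24 ± 0.90 CPM in exercised 1-year fish and 8.37 ± 2.26 CPM in resting 1-year fish. Its call was lost without exercised 1-year fish 2 or without resting 1-year fish 1, 2 or 4 (adjusted p up to 0.0772). Fitting the 1-year groups alone also ended the SP4 call (edgeR adjusted p 0.0604). With age averaged over exercise, SP3 (ENSDARG00000007812) rose by 0.26 ± 0.08 (edgeR adjusted p = 0.0435), a call lost when any 1 of 15 libraries was left out. In that comparison 1 of the 14 rose and 0 fell, where 5.4% of all genes rose and 6.95% fell. The list's median was 0.04 for exercise at 1 year and -0.04 for averaged age.

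Of 15 tested genes for corepressors, coactivators and ligases that act on these factors, 1 rose and 2 fell with exercise at 1 year, where 1.38% of all genes rose and 1.47% fell. NCOR1, a nuclear receptor corepressor, averaged 130.0 ± 20.2 CPM in exercised and 70.1 ± 25.0 CPM in resting 1-year fish (log2 fold change 0.89 ± 0.21, edgeR adjusted p = 0.0278). FBXW7, the substrate receptor of a ubiquitin ligase that in mammals targets KLF2 and KLF5, had a log2 fold change of -0.84 ± 0.20 (edgeR adjusted p = 0.026). The calls of NCOR1 and FBXW7 were each lost when any 1 of 6 libraries was left out. The list's median was -0.19.

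With age in exercised fish 3 of the 15 rose and none fell, where 3.91% of all genes rose. Among them were FBXW7 (0.73 ± 0.20, edgeR adjusted p = 0.0262) and EP300 (ENSDARG00000061108, 0.59 ± 0.17, edgeR adjusted p = 0.0361), a histone acetyltransferase. With averaged age 3 rose and 0 fell, where 5.4% of all genes rose and 6.95% fell. Among the 3 were EP300 (0.47 ± 0.12, edgeR adjusted p = 0.0155) and SIN3B (0.41 ± 0.11, edgeR adjusted p = 0.0265), a corepressor subunit. In exercised fish the calls of EP300 and FBXW7 were lost when any 1 of 8 and any 1 of 6 libraries was left out, and with averaged age that of SIN3B when any 1 of 6 was. Without the 7 libraries with intestinal reads none of the 15 was called in these comparisons by edgeR. Calls over all genes fell there too, to 437 of 18120 for age in exercised fish and 1450 for averaged age. In the full fit they were 1657 and 2233 of 18079. For exercise at 1 year they fell from 515 to 185. Over leaving out each library the count was 0 to 3 for exercise at 1 year, 1 to 4 for age in exercised fish and 1 to 5 for averaged age.

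Of 15 tested genes known to act upstream of Kruppel-like factor genes, 1 rose and 0 fell with exercise at 1 year. Among all genes 1.38% rose and 1.47% fell there. The gene that rose was FOXO1 (ENSDARG00000099555), an insulin-restrained factor. It averaged 157.5 ± 52.7 CPM in exercised and 24.8 ± 28.9 CPM in resting 1-year fish (log2 fold change 2.67 ± 0.55, edgeR adjusted p = 0.0135). The adjusted p was 0.0726 with the 1-year groups fitted alone. FOXO1 averaged 101.8 ± 45.0 CPM in exercised and 28.8 ± 7.56 CPM in resting 3-year fish. The clock activator BMAL1 (ENSDARG00000006791) rose with age in exercised fish (1.11 ± 0.13, edgeR adjusted p = 0.000221) and at rest (0.69 ± 0.13, edgeR adjusted p = 0.00619), and over both by 0.90 ± 0.09 (edgeR adjusted p = 1.65e-05). Its relative bmal2 rose with age in exercised fish (1.51 ± 0.32, edgeR adjusted p = 0.00753) and averaged over exercise (1.17 ± 0.22, edgeR adjusted p = 0.00255). Without the 7 libraries with intestinal reads the calls of BMAL1 at rest (adjusted p 0.0618) and of bmal2 (adjusted p 0.253 and 0.0512) were lost. npas2, another clock gene, fell with age at rest (-1.68 ± 0.45, edgeR adjusted p = 0.0465), a call lost when any 1 of 13 libraries was left out. With age at rest 1 of the 15 rose and 1 fell, where 1.23% of all genes rose and 2.26% fell. In exercised fish 2 rose and 0 fell with age, where 3.91% of all genes rose and 5.25% fell. Averaged over exercise 2 rose and 0 fell, where 5.4% of all genes rose and 6.95% fell. The list's median was -0.03 for exercise at 1 year and 0.11 for averaged age.

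KLF9 is known as a direct target of the glucocorticoid receptor, and 18 other targets of it were tested. With exercise at 1 year ZBTB16, a zinc finger repressor, rose by 4.44 ± 0.74 on the log2 scale (edgeR adjusted p = 0.00424). ZBTB16 averaged 159.8 ± 42.8 CPM in exercised and 7.35 ± 5.52 CPM in resting 1-year fish. In that comparison 1 of the 18 rose and 0 fell, where 1.38% of all genes rose and 1.47% fell. The list's median there was -0.38 against -0.04 over all genes, so most targets had a negative value. With age in exercised fish 1 of the 18 rose and 5 fell, where 3.91% of all genes rose and 5.25% fell. The clock gene PER1 (ENSDARG00000056885) fell by 3.32 ± 0.61, tsc22d3, a leucine zipper gene, by 1.85 ± 0.47 and DDIT4, an mTORC1 inhibitor, by 3.84 ± 1.00, while nfkbiaa, an NF-kappa-B inhibitor, rose by 2.06 ± 0.50 (edgeR adjusted p from 0.0038 to 0.0233). Without the 7 libraries with intestinal reads 1 rose and 1 fell, and tsc22d3 (adjusted p 0.347) and DDIT4 (0.357) were no longer called. That setting called 437 of 18120 genes in all, against 1657 of 18079 in the full fit. For age in exercised fish the list's median was -0.50 against 0.08 over all genes. Averaged over exercise 1 rose and 4 fell, where 5.4% of all genes rose and 6.95% fell, with both PER1 genes among the falls at -2.64 ± 0.42 and -1.07 ± 0.24 (edgeR adjusted p = 0.000718 and 0.00688).

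Across the 20 libraries 14 of these 18 targets had a positive Pearson correlation with klf9, as had 49.4% of all tested genes. The median was 0.283 against -0.00365 over all tested genes. Without the 7 libraries 14 of 18 were positive again, with a median of 0.362, where 49.7% of all genes were positive. With klf15, 10 of the 18 were positive (median 0.0588 against -0.0446), and 9 of 18 without the 7 libraries (median 0.00159). Of all genes 45.2% and 45% were positive with klf15, in the same order. All libraries share the same fish for both measures, and genes of a list are not independent of each other. HSD11B2, the enzyme that inactivates cortisol, was in the list and among the 3 genes most like klf9, and tat and pck1 were also in the list of genes linked to KLF15.

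Of 22 tested metabolic genes linked to KLF15 in mammals, 2 rose and 0 fell with exercise at 1 year, where 1.38% of all genes rose and 1.47% fell. PPARGC1A, a coactivator of glucose production, averaged 29.0 ± 16.5 CPM in exercised and 2.68 ± 4.20 CPM in resting 1-year fish (log2 fold change 3.42 ± 0.80, edgeR adjusted p = 0.0258). prodhb, a proline oxidase gene, had 0.885 ± 0.288 CPM in exercised and 0.288 ± 0.092 CPM in resting 1-year fish (1.61 ± 0.42, edgeR adjusted p = 0.0427). Leaving out any 1 of 6 libraries ended the call of PPARGC1A, and any 1 of 15 that of prodhb. At 3 years PPARGC1A averaged 13.1 ± 5.56 CPM in exercised and 2.14 ± 1.29 CPM in resting fish.

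With age the same list held more falls than rises, where 5.25% of all genes fell in exercised fish and 6.95% averaged over exercise. In exercised fish 7 of 22 fell and 0 rose, with a median of -0.93 against 0.08 over all genes, and without the 7 libraries with intestinal reads 2 fell. Averaged over exercise 9 fell and 1 rose, where 5.4% of all genes rose, and without the 7 libraries 5 fell and 1 rose. Over all genes that setting called 437 of 18120 with age in exercised fish and 1450 with averaged age. The full fit called 1657 and 2233 of 18079. prodha, the other proline oxidase gene, averaged 16.5 ± 15.3 CPM in exercised and 5.12 ± 3.25 CPM in resting 3-year fish, against 137.8 ± 42.9 and 81.7 ± 44.4 CPM in exercised and resting 1-year fish (averaged age -3.53 ± 0.43, edgeR adjusted p = 0.00012). GOT1, an aspartate aminotransferase, fell by 1.62 ± 0.29 (edgeR adjusted p = 0.00173) and pck2, a gluconeogenic enzyme, by 0.84 ± 0.15 (edgeR adjusted p = 0.00156). prodhb rose by 1.43 ± 0.29 (edgeR adjusted p = 0.00406). It averaged 1.01 ± 0.615 CPM in exercised and 1.86 ± 0.594 CPM in resting 3-year fish, so that its mean was lower in exercised than in resting fish at 3 years and higher at 1 year. The difference of the exercise effects, 3 years minus 1 year, was -2.50 ± 0.58 on the log2 scale (edgeR adjusted p = 0.0451), a call lost when any 1 of 18 libraries was left out.

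In exercised fish the alanine aminotransferase gene GPT (ENSDARG00000019541) fell with age by 1.37 ± 0.29 and GOT2 by 1.03 ± 0.25 (edgeR adjusted p = 0.00833 and 0.0172). At rest prodha fell by 3.99 ± 0.63, GOT1 fell by 1.83 ± 0.41 and prodhb rose by 2.68 ± 0.43 (edgeR adjusted p = 0.00205, 0.0194 and 0.00227). The GOT1 call at rest was lost without resting 1-year fish 2 (edgeR adjusted p 0.0533), without the 7 libraries with intestinal reads (0.0549) and with the resting groups fitted alone (0.0628). The GOT2 call in exercised fish was lost without the 7 libraries (edgeR adjusted p 0.0976). Across the 20 libraries 18 of the 22 had a positive correlation with klf15, with a median of 0.294 against -0.0446 over all genes, and 15 of 22 without the 7 libraries (median 0.202). The share of all genes with a positive correlation was 45.2% and 45%, in the same order.

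Of 15 tested endothelial genes linked to KLF2 in mammals, 1 fell and 0 rose with age in exercised fish, and likewise with averaged age. Among all genes 3.91% rose and 5.25% fell in exercised fish, and 5.4% rose and 6.95% fell with averaged age. The gene called was edn1, which encodes endothelin-1. It had 0.305 ± 0.106 CPM in exercised 3-year fish and 3.32 ± 1.71 CPM in exercised 1-year fish (-3.44 ± 0.54, edgeR adjusted p = 0.00133), and fell by 1.95 ± 0.36 averaged over exercise (edgeR adjusted p = 0.00214). For exercise at 1 year edgeR called 0 of the 15, with 3 unadjusted p under 0.05, and DESeq2 and limma-voom called 0. Over all 18079 genes edgeR called 515 there, DESeq2 1194 and limma-voom 520. Of the 20 endothelial markers 18 had a positive correlation with klf2a across libraries (median 0.195) and 5 with klf2b (median -0.193). Over all tested genes 49.1% were positive with klf2a (median -0.00418) and 53.5% with klf2b (median 0.0421). Without the 7 libraries the marker counts were 15 for klf2a (median 0.183) and 12 for klf2b (median 0.14). Of all genes 51.7% and 51.3% were positive there, in the same order.

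Of 7509 candidate genes (tested, named and averaging 5 CPM or more), those with the highest Pearson correlation of log2 CPM with klf8 over the 20 libraries were tsr1 (0.858), BMS1 (0.843), POLR1B (0.837), ptpn11b (0.832) and DDX18 (0.831). Over the 13 libraries without intestinal reads the values were 0.86, 0.908, 0.819, 0.893 and 0.829 in that order. After removal of group means they were between 0.53 and 0.606, so part of the likeness lay in the group means. For the less abundant KLF11 gene the closest were polr3gla (0.851), slc4a1ap (0.84) and ELL (0.826), and for the more abundant one ubn2a (0.815), YTHDF1 (0.794) and map2k4b (0.78). After removal of group means these were 0.59, 0.512 and 0.492 for the less abundant gene and 0.745, 0.766 and 0.716 for the more abundant one. Part of the likeness of the less abundant gene thus lay in the group means too.

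For klf9 the closest were ldlra (0.922), ULK2 (0.85) and HSD11B2 (0.829), and these remained at 0.948, 0.935 and 0.898 over the 13 libraries. For klf3 they were IQSEC1 (ENSDARG00000016551) and MYO5B, each at 0.962 over the 20 libraries and at 0.775 and 0.677 over the 13. LYSET followed at 0.948 over the 20 libraries and 0.584 over the 13. For klf13 the closest were HIPK3 (0.838), ADRA1A (0.836) and ERBB2 (0.818).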

How the data were processed

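The submitters' processing notes name STAR 2.4.1d, featureCounts 1.4.6-p4, bcl2fastq 1.8.4 and the build GRCz10. Levels and tests used the raw gene counts that the authors deposited. The deposited RPKM were used only to derive gene lengths. Over 1399 well covered genes the RPKM implied constant lengths (coefficient of variation at most 0.00013) only when the 20 library totals were taken in rotation down the rows, against a median of 0.14 with each library's own total, so the lengths were derived with the rotated totals. The kit named in the labels (TruSeq RNA v2) keeps no strand, so reads of overlapping or antisense genes cannot be separated. How reads shared by near-identical genes were counted is not stated in the labels or notes.

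Counts were tested in R 4.3.3 with edgeR 4.0.16: filterByExpr on the 4 groups, TMM, 1 model with 4 group means over all 20 libraries, quasi-likelihood F-tests and Benjamini-Hochberg adjustment over 18079 genes, with calls at an adjusted p under 0.05. Standard errors come from the test statistic. Alternatives used DESeq2 1.42.0 and limma-voom (limma 3.58.1), other scalings and filters, the contrast's groups alone, leaving out each library, and leaving out the 7 libraries with fabp2 above 100 plain CPM. The script was tested on simulated data. Log2 levels used a prior count of 2.

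The members and lists were chosen with earlier results of these data known. All 10 members are named. Of each list the called genes with the smallest p, up to 4 in each contrast, are named, other called genes of lists appear only as counts, and 1 that the rule names is not reported here by name. Called endothelial markers, and myeloid markers called with age, appear as counts. Likeness names the 5 genes most correlated with klf8 and 3 each for klf3, klf9, klf13 and both KLF11 genes. For klf2a, klf2b, klf6a and klf15 none are named. A fold change of a member is printed only where it exceeds its standard error, apart from that of klf8 with age in exercised fish. Names were matched by symbol, or by the symbol without its paralog letter. No sequences are shown. Marker lists of 10 cell types or tissues were summed. Replicate numbers follow the order of the samples.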

Additional observations from a re-analysis of the deposited data

Results flagged for a closer look

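In 7 of the 40 combinations of gene and group 1 library stood apart from the other 4 by Dixon's criterion for 5 samples. Chance flags about 1 in 20 groups where values are normally distributed, which CPM on a linear scale need not be, so 7 of 40 is not set against that rate. On log2 CPM 3 of the 7 passed the same criterion. All 7 were high, and 4 of them were libraries with intestinal reads. Exercised 1-year fish 4 had 27.7 CPM of klf2b where the next highest fish of its group had 3.34 CPM, 31.9 CPM of klf3 where the next had 8.23 CPM, and 44.95 CPM of klf6a where the next had 22.1 CPM. Resting 1-year fish 5 had 31.3 CPM of klf3, and the next had 9.82 CPM. The other 3 came from libraries without intestinal reads. Exercised 3-year fish 3 had 135.0 CPM of the more abundant KLF11 gene, and the next had 55.4 CPM. Resting 3-year fish 5 had 38.2 CPM of klf13, and the next had 3.31 CPM. Resting 1-year fish 3 had 47.1 CPM of klf13, and the next had 6.01 CPM. The klf13 means of both resting groups rest on these single fish.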

How the results depend on the processing

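Besides leaving out each of the 20 libraries, 8 named alternatives were run. For exercise at 1 year the count of members called was 1 in the main edgeR fit, 2 by DESeq2, 0 without the 7 libraries with intestinal reads, and 0 to 1 over leaving out each library. DESeq2 called 1194 of all 18079 genes for exercise at 1 year, against 515 by edgeR. For age in exercised fish the count of members called was 0 in the main fit, 1 by DESeq2, 1 with the contrast's groups alone and 0 to 1 over leaving out each library (1 without exercised 1-year fish 4). Over all genes DESeq2 called 3011 of 18079 there, the contrast's groups alone 1749 of 16747 and the main fit 1657 of 18079. For averaged age the count of members called was 1 in the main fit and over all libraries left out, and 0 without the 7 libraries. These settings leave unequal groups, so the klf8 call in them is not independent of how klf8 was picked. The counts for age at rest and for the interaction were 0 under all alternatives run. These counts, like that for age in exercised fish, leave out klf8, which was described and not tested in those comparisons. The klf8 log2 fold change at 3 years stayed between 1.35 and 1.58 over leaving out each library. Signs turned without the 7 libraries for klf2b at exercise 1 year (-0.61), klf3 at exercise 3 years (-0.25) and klf6a with age in exercised fish (0.23) and averaged (0.014), and without exercised 1-year fish 4 for klf2b at 1 year (-0.85, with 1.11 as the highest value over libraries left out) and klf6a with age in exercised fish (0.096, with -0.48 as the lowest). The setting without the 7 libraries leaves 2 exercised 3-year, 4 resting 3-year, 3 exercised 1-year and 4 resting 1-year fish, so it also has fewer samples. Of 18120 genes it called 185 for exercise at 1 year, 437 for age in exercised fish and 1450 for averaged age. The main fit called 515, 1657 and 2233 of 18079, in the same order. No paired analysis was possible because the replicate numbers only follow the order of the samples and the labels pair no fish across groups.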
